A study of Homo sapiens with 4 samples.

Results

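The 40 genes described here encode factors that build ribosomes in the nucleolus. The rule names them by symbol and uses no measured value, although they were proposed with results of these data known, and all 40 were found among the 58051 gene identifiers of the deposited tables. All 40 also passed the filter on low values in both lines, a TPM (a level per transcript length, scaled to the same total in every library) of at least 1 in at least 3 libraries. The samples were 2 human epithelial cancer lines of wild-type genotype: H441, from a lung adenocarcinoma, and HT29, from a colorectal adenocarcinoma. Culture lasted 7 days in one of a pair of media: RPMI-1640, the standard one, or HPLM (human plasma-like medium), whose small molecules resemble those of blood plasma. Both media held 10% fetal bovine serum and penicillin with streptomycin. GEO lists 4 samples, each with 3 numbered columns of values, called libraries here, which makes 12. Whether the 3 were grown separately is not labelled, and p-values therefore cover the spread among libraries only, which may be technical.

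Ribosomes are assembled from ribosomal RNA and proteins. In the nucleolus RNA polymerase I transcribes a long precursor RNA, small nucleolar particles guide its chemical modification, and large assemblies fold and cut it into the RNAs of the small (40S) and large (60S) subunits. Cells that grow fast make many ribosomes, and many genes of this pathway are known targets of the transcription factor MYC, which binds as a pair with MAX to the E-box, the letters CACGTG.

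Recovered read counts ran from 14.2 to 30.6 M per library. Both lines held the markers of their tissue of origin: the summed level of 5 lung epithelial markers was 2755 to 2835 TPM in H441 in RPMI-1640, 1066 to 1152 TPM in HPLM and at most 9.21 TPM in HT29. That of 5 colonic markers was 1318 to 2109.8 TPM in HT29 and at most 5.74 TPM in H441. Of the colonic markers, CDX1 stayed under 1 TPM in every HT29 library. CDX2 stood in HT29 at 5.38 ± 1.38 TPM (SD over libraries) in RPMI-1640 and 3.23 ± 0.282 TPM in HPLM. The fall of lung markers in HPLM lay in SFTPA1 and SFTPA2, 2 surfactant genes. Fibroblast markers summed to at most 33.5 TPM, leukocyte markers to at most 47.7 TPM and endothelial markers to at most 1.81 TPM in any library. The highest fibroblast sum was nearly all LUM, which reached 33.46 TPM in H441 in HPLM. The part of these marker differences in the results below was not tested. One HT29 library, library 1 in RPMI-1640, had the lowest read count and differed from the other HT29 libraries, and HT29 values are given with and without it. In bulk RNA, a change in the level of a transcript per cell and a change in the share of cells that carry it cannot be told apart.

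The promoter windows of RefSeq (GRCh38.p14; 250 bases before and 50 after each gene's start) were read for 32 of the 40 members, and not for BOP1, DDX18, DDX52, NOLC1, NOP58, RRP12, RRP1B and RRS1. The letters CACGTG, which read the same on both strands, stood in the window of 14 of these 32 members (43.8%). The same letters stood in 32 of 143 genes of the other lists used below, which also hold RNA exosome, MYC partner, nucleolar stress and small nucleolar RNA host genes (22.4%). They stood in 1252 of 10045 genes tested in H441 (12.5%) and in 2396 of 27305 genes of the table (8.77%), over windows of the same length. The median G and C content of the windows was 63.8% for the members, 64.7% for the genes tested and 58.7% for the whole table. No other motif was searched. The sites of 7 members are shown because each of these genes has its values below; the capitals mark the E-box, and 12 bases on either side are given (fewer in NOP2, where the window ends).

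UTP20, chr12:101280083-101280112, plus strand: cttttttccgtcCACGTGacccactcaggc
WDR43, chr2:28894658-28894687, plus strand: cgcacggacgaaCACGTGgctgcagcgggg
RRP9, chr3:51941892-51941921, minus strand: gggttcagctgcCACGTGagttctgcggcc
PES1, chr22:30591880-30591909, minus strand: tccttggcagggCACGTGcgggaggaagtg
NOP2, chr12:6568242-6568268, minus strand: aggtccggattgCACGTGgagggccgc
LYAR, chr4:4290068-4290097, minus strand: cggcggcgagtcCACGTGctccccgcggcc
GNL3, chr3:52686026-52686055, plus strand: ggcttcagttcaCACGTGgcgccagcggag

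Besides the E-box these 30-base stretches differ, and its place differs too. Positions are counted from 1 at the first transcribed base, with no 0. The E-box began at -64 in LYAR, -10 in UTP20 and -5 in RRP9, ahead of or across the gene start. It began at 4 in WDR43, 7 in GNL3, 14 in PES1 and 36 in NOP2, after that base. The start is RefSeq's and can differ from the annotated gene bounds given with the members below. A distance of 50 bases, chosen after the positions were seen, held a match in 13 of the 32 members (40.6%), 5.18% of genes tested in H441 and 3.51% of all genes. The region ahead of UTP20, the member of largest change in HT29 without library 1 of RPMI-1640, is given whole to show its single E-box, in capitals, within the last bases before the start.

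UTP20 upstream, chr12:101279855-101280104, plus strand: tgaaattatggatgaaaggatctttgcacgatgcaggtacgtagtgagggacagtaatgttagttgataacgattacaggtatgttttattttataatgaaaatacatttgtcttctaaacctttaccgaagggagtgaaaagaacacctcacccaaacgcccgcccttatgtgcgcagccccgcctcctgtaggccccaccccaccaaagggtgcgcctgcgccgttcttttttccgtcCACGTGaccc

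Of these 250 bases 47.6% are G or C. A match of letters describes the sequence and shows no binding. The other members with the motif were FBL, GAR1, MYBBP1A, NOP14, DDX21, BYSL and PNO1.

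**Figure D1:**
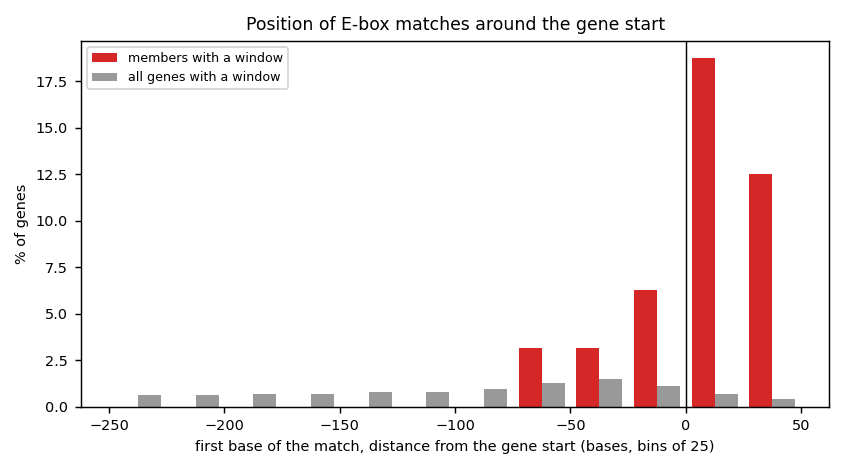
Share of genes (vertical axis, percent) with an E-box that begins at each distance from the gene start (horizontal axis, bases, bins of 25), for the 32 members with a window in red and all 27305 genes in grey. The 25 bases after the start hold a match in 18.8% of members and 0.696% of all genes, and no member has one further than 75 bases ahead of the start.

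In H441 the factors rose almost as a whole in HPLM. Of the 40 members 36 rose and 0 fell (adjusted p under 0.05, limma on log2(TPM + 1) with Benjamini-Hochberg adjustment over 16458 genes), where 33.7% of all genes tested rose and 11.3% fell. The members' median log2 change, HPLM over RPMI-1640, was 0.45 against 0.14 over all genes tested, and all 40 changes lay above 0, from 0.01 in GNL3 to 0.85 in POLR1B. In 37 members the 3 HPLM libraries lay above the 3 RPMI-1640 libraries without overlap, as in 42.1% of all genes. The summed level of the members was 4735, 4839.7 and 4691 TPM in RPMI-1640 and 6288, 5935 and 6254 TPM in HPLM. The 4 members that did not pass the test were GAR1, NHP2, NOLC1 and GNL3. TSR1 lost its call on leaving out any 1 library except RPMI-1640 library 2, and GRWD1 on leaving out any 1 RPMI-1640 library. RRP1B lost it on leaving out RPMI-1640 library 2 or HPLM library 1 or 3, and FBL on leaving out HPLM library 1 or 3. In these fits 33 to 35 members rose.

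The size of the H441 change depended on the scaling. Mitochondrially encoded genes took 26.3% ± 2.38 (SD, n = 3) of TPM in RPMI-1640 and 19.0% ± 2.29 in HPLM, and TPM gives every library the same total. With these genes left out of the total the members' median was 0.32 against 0.03 over all genes. After trimmed mean scaling, which brings the median of all genes to 0.00, 28 members rose and 1 (GNL3, -0.15) fell, with a median of 0.29, where 22.5% of all genes rose and 22.5% fell. With this scaling 36 of the 40 changes lay above 0 and 4 below. By edgeR's quasi-likelihood test on recovered reads 35 rose and 2 fell (NOLC1 and GNL3), against 28.5% and 27.3% of all genes. In the authors' deposited table, 32 members were raised and 2, again NOLC1 and GNL3, were lowered at an adjusted p under 0.05, against 23.8% and 24.5% of its genes.

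**Figure D2:**
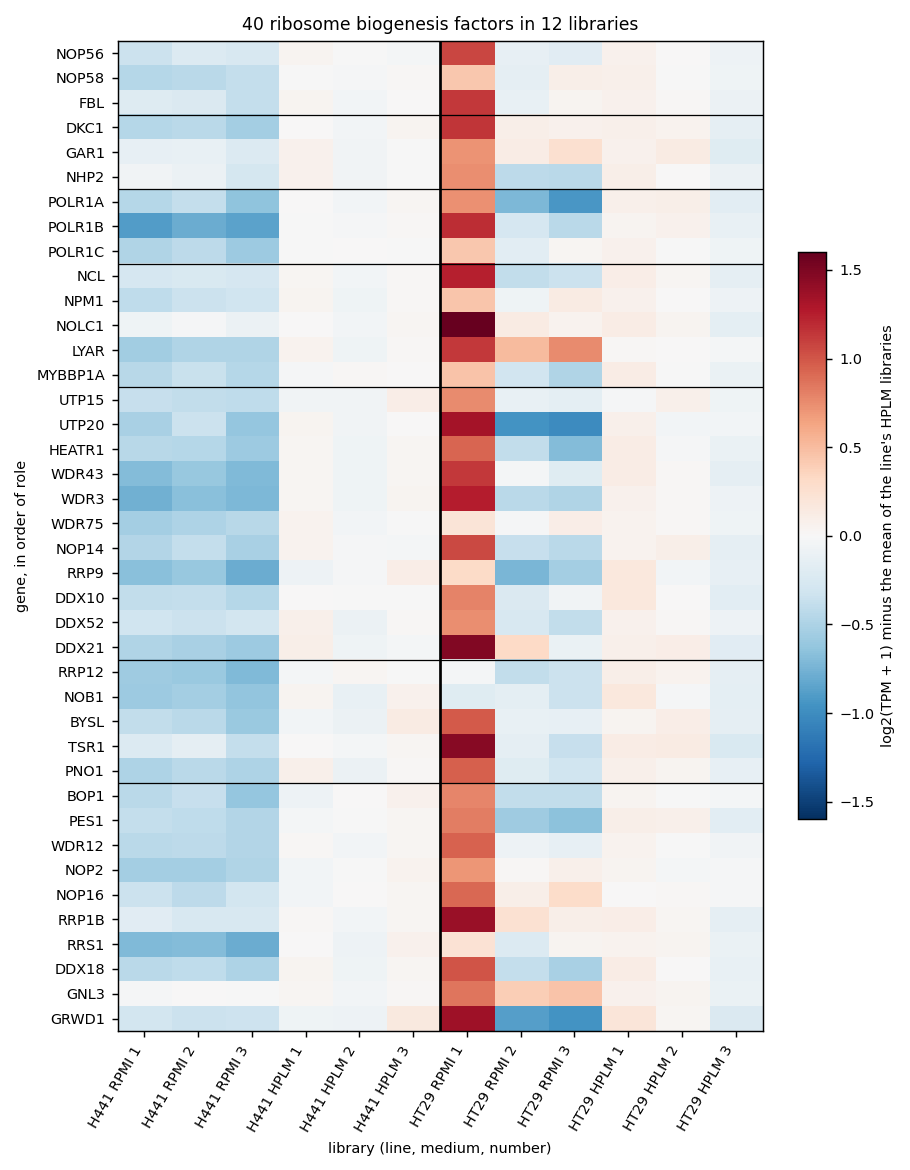
Each of the 40 members (rows, in the order of roles used below) in each of the 12 libraries (columns). Colour is log2(TPM + 1) minus the mean of the line's 3 HPLM libraries, blue below and red above. The H441 RPMI-1640 columns are blue in nearly all rows, and the column of HT29 RPMI-1640 library 1 is red in nearly all.

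In HT29 the result turned on 1 library. Library 1 of RPMI-1640 held every member above the mean of RPMI-1640 libraries 2 and 3, by a median of 2.22 times (range 1.04 in NOB1 to 5.75 in UTP20), while libraries 2 and 3 differed from each other by 0.836 to 1.35 times. In 39 members it lay above both, as in 52.8% of all genes tested, NOB1 being the exception. In 30 members its level was over 1.5 times and in 24 over 2 times that mean, where 35.3% and 17.7% of 11037 genes with a mean of at least 5 TPM were, whose median ratio was 1.21. The summed level of the members was 8462 TPM in library 1, 4332 and 4556 TPM in libraries 2 and 3, and 4934, 4749.7 and 4331 TPM in the HPLM libraries. In 38 members library 1 also exceeded all 3 HPLM libraries. The share of all genes that did so was not computed, so this count is not read as particular to the members. Mitochondrially encoded genes took 19.3% of TPM in library 1, 30.2% and 28.8% in libraries 2 and 3, and 29.6%, 33.2% and 38.7% in HPLM. Leukocyte markers summed to 19.0 to 47.7 TPM in RPMI-1640 and 10.7 to 14.1 TPM in HPLM. Among them CD14 stood at 25.2 ± 16.2 TPM (SD, n = 3) in RPMI-1640 and 5.36 ± 1.23 TPM in HPLM. Each other leukocyte marker had a mean of at most 4.05 TPM in either medium. With mitochondrially encoded genes left out of the total, the members' median log2 change in HT29 was 0.00 against 0.08 over all genes. The part of the leukocyte markers was not tested.

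With all 6 HT29 libraries limma called 0 members raised and 0 lowered, against 2.53% and 3.58% of all genes, and the members' median log2 change was -0.15 against -0.07. Before adjustment 2 members had a p under 0.05. By edgeR on recovered reads 0 rose and 2 fell (LYAR and GNL3), against 5.28% and 5.86% of all genes. In the authors' deposited table, 1 member, RRP12, was raised and 2, LYAR and GNL3, were lowered, against 9.25% and 12% of its genes. Only NOB1 lay higher in HPLM without overlap and only LYAR, NOP16 and GNL3 lower, as 15.3% and 20.5% of all genes did.

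Without library 1, 14 members rose in HPLM and 2 fell, against 17.8% and 21.4% of 17273 genes tested, and the median was 0.15 against 0.00 over all genes. The raised members were NHP2, POLR1A, NCL, MYBBP1A, UTP20, HEATR1, WDR3, NOP14, RRP9, RRP12, BOP1, PES1, DDX18 and GRWD1, and the lowered ones LYAR and GNL3. In 21 members the HPLM libraries lay above RPMI-1640 libraries 2 and 3 and in 3 below, as 30.5% and 33.5% of all genes did. By edgeR without library 1, 20 members rose and the same 2 fell, against 30.6% and 31%. After trimmed mean scaling 19 rose and those 2 fell, against 24.6% and 24.7%. These counts rest on 2 RPMI-1640 libraries. Leaving out a further RPMI-1640 library left 1 in that group. Most of the members' calls were then lost, and calls over all genes also became fewer. Leaving out HPLM library 1 gave 6 raised and 2 lowered members, against 2246 and 3473 of 16805 genes tested. Without HPLM library 2 there were 6 and 1, against 2420 and 3082 of 16859. Without HPLM library 3 there were 16 and 2, against 3386 and 3284 of 16885. Where 1 RPMI-1640 library was left, it is assumed to vary like the HPLM libraries. UTP20 was the raised member whose call held in all 5 of these fits. NHP2, NCL, MYBBP1A, NOP14, RRP12, BOP1 and DDX18 each lost theirs in 4 of them.

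**Figure D3:**
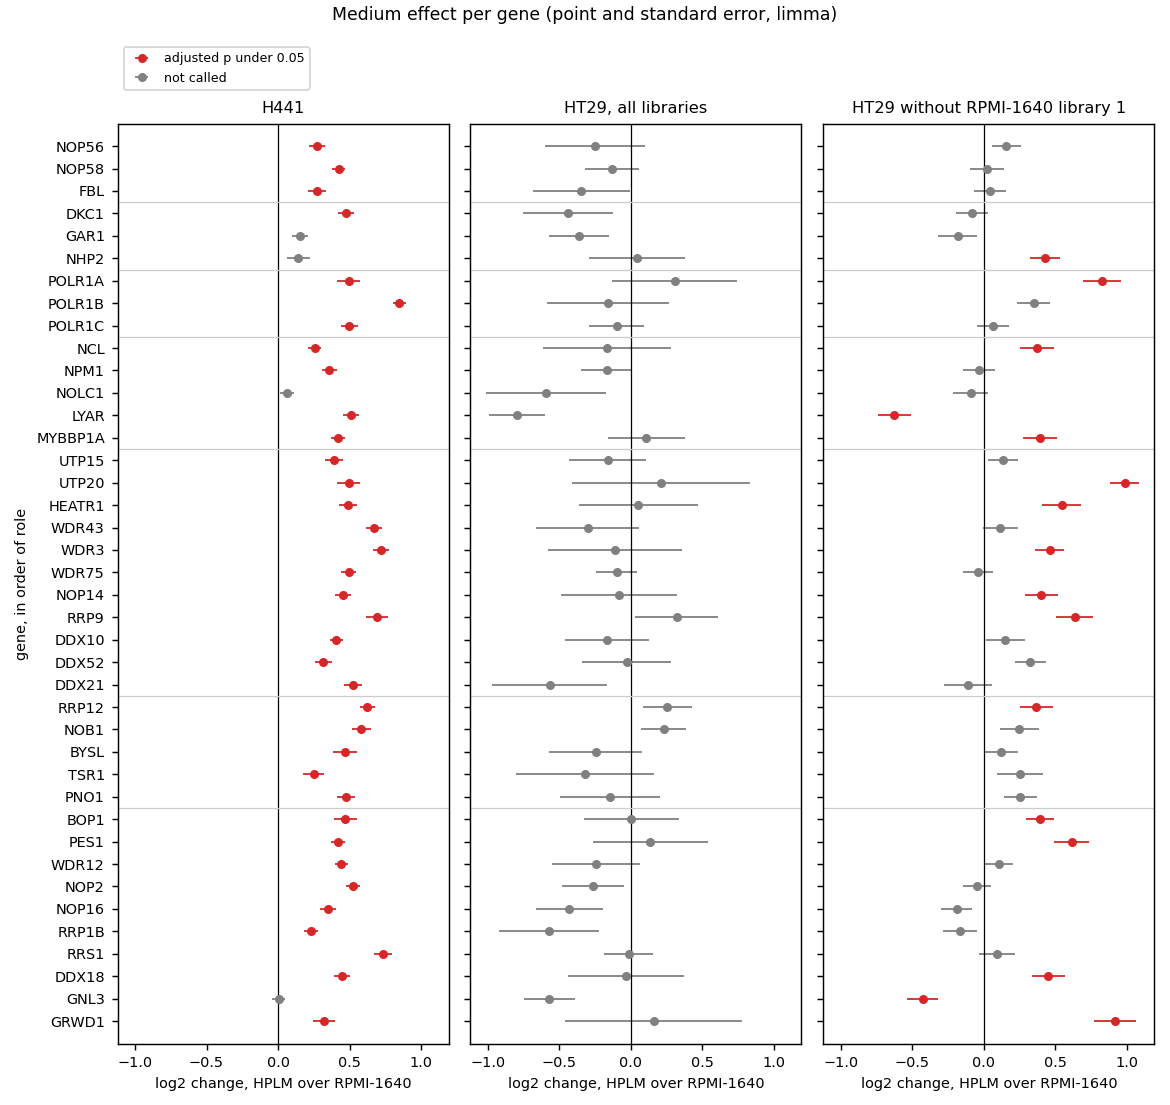
Log2 change (HPLM over RPMI-1640, on log2(TPM + 1)) of each member with its standard error, in H441, in HT29 with all libraries and in HT29 without RPMI-1640 library 1; red points passed an adjusted p of 0.05. The H441 panel holds 36 red points, all right of 0, the middle panel none, and the right panel 14 right and 2 left of 0.

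Box C/D particles carry guide RNAs that direct 2′-O-methylation of ribosomal RNA. NOP56 (ENSG00000101361, chromosome 20, 2652145 to 2658393 in GRCh38, as for all positions here), a core scaffold protein of this particle, stood in H441 at 48.1, 52.6 and 50.9 TPM in RPMI-1640 and 62.8, 61.1 and 59.6 TPM in HPLM, a log2 change of 0.27 ± 0.05 (adjusted p = 0.0109). Its partner NOP58 (ENSG00000055044, chromosome 2, 202265716 to 202303666) stood at 201, 205 and 212 TPM in RPMI-1640 and 276, 275 and 282 TPM in HPLM, a log2 change of 0.42 ± 0.05 (adjusted p = 0.00134). FBL (ENSG00000105202, chromosome 19, 39834458 to 39846414), the methyltransferase fibrillarin, stood at 249.97, 247 and 222 TPM in RPMI-1640 and 297, 279 and 291 TPM in HPLM, a log2 change of 0.27 ± 0.07 (adjusted p = 0.0196). In all 3 the HPLM libraries lay above the RPMI-1640 libraries. Of the 3, NOP58 alone was raised after trimmed mean scaling (0.26, against 0.11 in NOP56 and 0.11 in FBL). HT29 NOP56 was measured at 289.6, 125 and 120.3 TPM in RPMI-1640 libraries 1 to 3 and 144, 138 and 130.1 TPM in HPLM, a log2 change of -0.25 ± 0.35 with all libraries (adjusted p = 0.708) and of 0.16 ± 0.10 without library 1 (adjusted p = 0.264). HT29 NOP58 was measured at 208, 139.9 and 165 TPM in RPMI-1640 libraries 1 to 3 and 163, 154 and 146 TPM in HPLM, a log2 change of -0.13 ± 0.19 with all libraries (adjusted p = 0.719) and of 0.02 ± 0.12 without library 1 (adjusted p = 0.912). HT29 FBL was measured at 639.7, 267 and 299.8 TPM in RPMI-1640 libraries 1 to 3 and 306, 296 and 274 TPM in HPLM, a log2 change of -0.35 ± 0.34 with all libraries (adjusted p = 0.580) and of 0.04 ± 0.11 without library 1 (adjusted p = 0.786). Library 1 stood far above the rest in NOP56 and FBL, at 2.36 and 2.26 times the mean of libraries 2 and 3, and by 1.37 times in NOP58, and no change passed the test.

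H/ACA particles direct pseudouridylation. DKC1 (ENSG00000130826, chromosome X, 154762742 to 154777689), the pseudouridine synthase dyskerin, stood in H441 at 185, 188 and 173 TPM in RPMI-1640 and 254, 246 and 261 TPM in HPLM, a log2 change of 0.48 ± 0.05 (adjusted p = 0.00166). The other core proteins of the particle, GAR1 and NHP2, did not pass the test, with log2 changes of 0.15 ± 0.06 (adjusted p = 0.0784) and 0.14 ± 0.08 (adjusted p = 0.197), and lay at -0.01 and -0.02 after trimmed mean scaling. HT29 DKC1 was measured at 438, 209.6 and 208 TPM in RPMI-1640 libraries 1 to 3 and 208, 206 and 179 TPM in HPLM, a log2 change of -0.44 ± 0.31 with all libraries (adjusted p = 0.446) and of -0.08 ± 0.11 without library 1 (adjusted p = 0.598). Libraries 2 and 3 of RPMI-1640 and HPLM libraries 1 and 2 stood close together in DKC1, and library 1 alone was high. NHP2 was the member of this particle that rose without library 1 (0.43 ± 0.11, adjusted p = 0.0234, against 0.04 ± 0.34, adjusted p = 0.955, with all libraries), from 128 and 127 TPM to 183, 172 and 161 TPM. GAR1 lay at -0.18 ± 0.14 (adjusted p = 0.319) against -0.36 ± 0.21 (adjusted p = 0.342) with all libraries.

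RNA polymerase I showed the largest member change in H441. POLR1B (ENSG00000125630, chromosome 2, 112541915 to 112577150), its second-largest subunit, stood at 31.5, 33.9 and 32.2 TPM in RPMI-1640 and 59.3, 58.8 and 60.1 TPM in HPLM, a log2 change of 0.85 ± 0.05 (adjusted p = 2.46e-04), with the HPLM libraries all well above the RPMI-1640 ones. POLR1A (ENSG00000068654, chromosome 2, 86020216 to 86106155), the largest subunit, stood at 22.3, 23.4 and 19.4 TPM in RPMI-1640 and 31.0, 29.97 and 31.6 TPM in HPLM, a log2 change of 0.49 ± 0.08 (adjusted p = 0.00504). POLR1C (ENSG00000171453, chromosome 6, 43509702 to 43562419), shared with RNA polymerase III, stood at 43.7, 45.8 and 40.7 TPM in RPMI-1640 and 61.3, 62.0 and 61.6 TPM in HPLM, a log2 change of 0.50 ± 0.06 (adjusted p = 0.00169). All 3 also rose after trimmed mean scaling (0.69, 0.34 and 0.34). HT29 POLR1A was measured at 33.4, 11.6 and 9.87 TPM in RPMI-1640 libraries 1 to 3 and 20.9, 21.0 and 17.4 TPM in HPLM, a log2 change of 0.31 ± 0.44 with all libraries (adjusted p = 0.719) and of 0.82 ± 0.13 without library 1 (adjusted p = 0.00564). HT29 POLR1B was measured at 52.1, 18.4 and 16.4 TPM in RPMI-1640 libraries 1 to 3 and 23.2, 23.6 and 20.5 TPM in HPLM, a log2 change of -0.16 ± 0.43 with all libraries (adjusted p = 0.853) and of 0.35 ± 0.12 without library 1 (adjusted p = 0.0576). HT29 POLR1C was measured at 63.9, 41.8 and 48.1 TPM in RPMI-1640 libraries 1 to 3 and 49.2, 47.0 and 44.9 TPM in HPLM, a log2 change of -0.10 ± 0.19 with all libraries (adjusted p = 0.793) and of 0.07 ± 0.11 without library 1 (adjusted p = 0.668). Without library 1 POLR1A was thus the subunit that rose, and its call was lost on leaving out RPMI-1640 library 3 as well (adjusted p = 0.0678).

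Among nucleolar chaperones and regulators, 4 of 5 members rose in H441. NCL (ENSG00000115053, chromosome 2, 231453531 to 231483641), which encodes nucleolin, an abundant nucleolar RNA-binding protein, stood at 546, 555 and 546 TPM in RPMI-1640 and 670.2, 635 and 662 TPM in HPLM, a log2 change of 0.26 ± 0.05 (adjusted p = 0.00708). NPM1 (ENSG00000181163, chromosome 5, 171387116 to 171411137), which encodes the chaperone nucleophosmin and had the highest level of the 40, stood at 1228, 1274 and 1296 TPM in RPMI-1640 and 1676, 1549 and 1646 TPM in HPLM, a log2 change of 0.36 ± 0.05 (adjusted p = 0.00389). LYAR (ENSG00000145220, chromosome 4, 4267701 to 4290169), a nucleolar zinc finger protein, stood at 99.6, 105 and 106 TPM in RPMI-1640 and 153, 140.3 and 149 TPM in HPLM, a log2 change of 0.51 ± 0.06 (adjusted p = 0.00142). MYBBP1A, a nucleolar partner of MYB, rose by 0.42 ± 0.05 (adjusted p = 0.00186), and NOLC1, a chaperone of small nucleolar particles, did not pass the test at 0.06 ± 0.05 (adjusted p = 0.345). NCL lay at 0.10 after trimmed mean scaling and was not called. HT29 NCL was measured at 1186, 381 and 395 TPM in RPMI-1640 libraries 1 to 3 and 539.5, 515 and 455 TPM in HPLM, a log2 change of -0.17 ± 0.45 with all libraries (adjusted p = 0.857) and of 0.37 ± 0.12 without library 1 (adjusted p = 0.0473). HT29 NPM1 was measured at 1823, 1289 and 1474 TPM in RPMI-1640 libraries 1 to 3 and 1406, 1357 and 1277 TPM in HPLM, a log2 change of -0.17 ± 0.18 with all libraries (adjusted p = 0.611) and of -0.03 ± 0.11 without library 1 (adjusted p = 0.829). HT29 LYAR was measured at 158, 102 and 121 TPM in RPMI-1640 libraries 1 to 3 and 72.2, 72.0 and 70.2 TPM in HPLM, a log2 change of -0.80 ± 0.20 with all libraries (adjusted p = 0.0670) and of -0.63 ± 0.11 without library 1 (adjusted p = 0.00872). LYAR ran the other way from H441: in HT29 its 3 HPLM libraries lay below all 3 RPMI-1640 libraries. Its call without library 1 was lost on leaving out RPMI-1640 library 3 too (adjusted p = 0.0615). MYBBP1A rose without library 1 (0.39 ± 0.12, adjusted p = 0.0443, against 0.11 ± 0.27, adjusted p = 0.844, with all libraries). NOLC1, at 592 TPM in library 1 against 212 and 203 TPM, lay at -0.09 ± 0.12 (adjusted p = 0.580) against -0.59 ± 0.42 (adjusted p = 0.440) with all libraries.

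The small subunit processome folds and cuts the precursor of the 40S subunit, and all 11 of its members here rose in H441, with a median of 0.49. UTP20 (ENSG00000120800, chromosome 12, 101280109 to 101386616), a large scaffold protein of this assembly whose upstream region is shown above, stood at 17.8, 20.2 and 16.5 TPM in RPMI-1640 and 26.7, 24.96 and 26.1 TPM in HPLM, a log2 change of 0.49 ± 0.08 (adjusted p = 0.00558). HEATR1 (ENSG00000119285, chromosome 1, 236549005 to 236604504), which also acts in transcription by RNA polymerase I, stood at 34.8, 34.5 and 31.5 TPM in RPMI-1640 and 48.7, 45.4 and 48.6 TPM in HPLM, a log2 change of 0.49 ± 0.06 (adjusted p = 0.00216). WDR3 (ENSG00000065183, chromosome 1, 117929720 to 117966542), a WD-repeat component, stood at 32.6, 35.3 and 33.8 TPM in RPMI-1640 and 57.8, 53.6 and 58.1 TPM in HPLM, a log2 change of 0.72 ± 0.06 (adjusted p = 5.82e-04). The RPMI-1640 and HPLM libraries did not overlap in any of these genes. RRP9, a protein of the U3 particle, rose by 0.69 ± 0.08 (adjusted p = 0.00149), and WDR43, of the subcomplex that binds the precursor first, by 0.67 ± 0.05 (adjusted p = 6.27e-04). The other components UTP15, WDR75 and NOP14 rose by 0.39, 0.49 and 0.45, and the helicases DDX10, DDX52 and DDX21 by 0.41, 0.32 and 0.52. All but DDX52 (0.16) also rose after trimmed mean scaling.

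In HT29 UTP20 gave the widest contrast of any member, both among RPMI-1640 libraries and, without library 1, between media. It was measured at 30.3, 5.39 and 5.16 TPM in RPMI-1640 libraries 1 to 3 and 12.2, 11.1 and 11.0 TPM in HPLM, a log2 change of 0.21 ± 0.62 with all libraries (adjusted p = 0.871) and of 0.98 ± 0.10 without library 1 (adjusted p = 0.00143). Library 1 was thus 5.75 times the mean of libraries 2 and 3, and the HPLM libraries lay between them, above libraries 2 and 3 and below library 1. HT29 HEATR1 was measured at 43.7, 16.8 and 13.5 TPM in RPMI-1640 libraries 1 to 3 and 24.4, 22.2 and 20.8 TPM in HPLM, a log2 change of 0.05 ± 0.42 with all libraries (adjusted p = 0.953) and of 0.54 ± 0.14 without library 1 (adjusted p = 0.0237). HT29 WDR3 was measured at 50.9, 15.1 and 14.5 TPM in RPMI-1640 libraries 1 to 3 and 21.7, 21.0 and 19.5 TPM in HPLM, a log2 change of -0.11 ± 0.47 with all libraries (adjusted p = 0.910) and of 0.46 ± 0.10 without library 1 (adjusted p = 0.0164). NOP14 and RRP9 also rose without library 1, by 0.40 ± 0.12 (adjusted p = 0.0383) against -0.08 ± 0.41 (adjusted p = 0.923) with all libraries and 0.63 ± 0.13 (adjusted p = 0.0133) against 0.32 ± 0.29 (adjusted p = 0.549) with all libraries, RRP9 from 47.8 and 54.7 TPM to 89.7, 77.8 and 73.2 TPM. The remaining 6 members of the group did not pass the test without library 1, at -0.11 in DDX21 to 0.32 in DDX52, nor with all libraries, at -0.57 in DDX21 to -0.03 in DDX52.

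**Figure D4:**
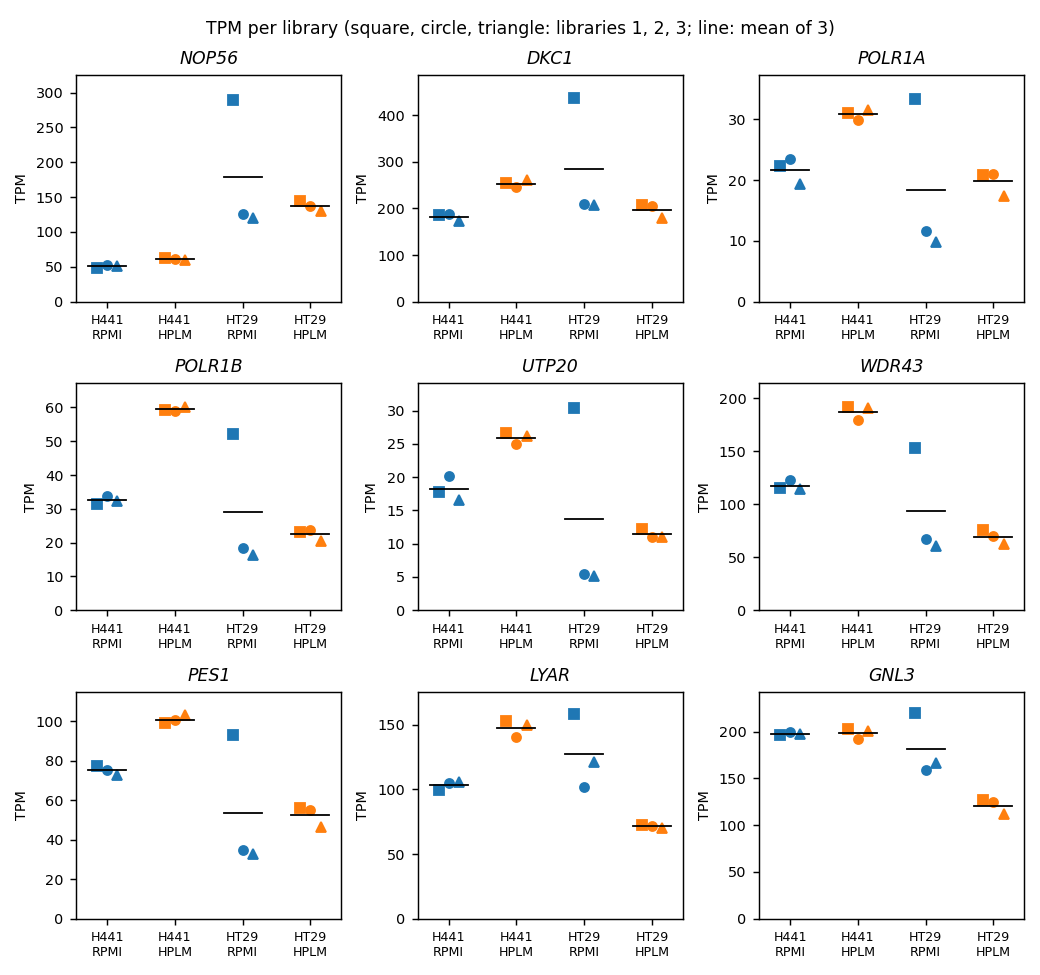
TPM of 9 members in each library of the 4 groups (squares, circles and triangles are libraries 1, 2 and 3; the line is the mean of 3; vertical axes start at 0 and differ between panels). In HT29 in RPMI-1640 the square, library 1, stands above the circle and triangle in every panel, and LYAR and GNL3 are the panels in which the HT29 HPLM points lie below all RPMI-1640 points.

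Late maturation of the 40S subunit ends in the cytoplasm with a last cut of its RNA by the endonuclease NOB1 (ENSG00000141101, chromosome 16, 69741867 to 69754940). NOB1 stood in H441 at 116, 119 and 112 TPM in RPMI-1640 and 179, 161 and 183 TPM in HPLM, a log2 change of 0.58 ± 0.07 (adjusted p = 0.00164). RRP12, which helps export the subunit, rose by 0.63 ± 0.06 (adjusted p = 7.80e-04), BYSL by 0.47 ± 0.09 (adjusted p = 0.00793), PNO1, the partner of NOB1, by 0.48 ± 0.06 (adjusted p = 0.00230) and TSR1 by 0.25 ± 0.07 (adjusted p = 0.0388). TSR1 lay at 0.09 after trimmed mean scaling and was not called. HT29 NOB1 was measured at 118, 121 and 106 TPM in RPMI-1640 libraries 1 to 3 and 152, 133 and 121 TPM in HPLM, a log2 change of 0.23 ± 0.16 with all libraries (adjusted p = 0.424) and of 0.25 ± 0.14 without library 1 (adjusted p = 0.196). NOB1 was the member in which library 1 did not stand out, and its HPLM libraries lay higher with or without it. RRP12 rose without library 1 (0.37 ± 0.12, adjusted p = 0.0497, against 0.26 ± 0.17, adjusted p = 0.405, with all libraries), with 29.4, 22.6 and 23.6 TPM in RPMI-1640 and 32.2, 31.2 and 27.1 TPM in HPLM. BYSL, TSR1 and PNO1 lay at 0.12, 0.25 and 0.26 without library 1 and at -0.25, -0.32 and -0.15 with all libraries, and were not called.

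Of 10 factors of the 60S subunit 9 rose in H441. BOP1, PES1 and WDR12 form a complex needed to process the 60S precursor. BOP1 (ENSG00000261236, chromosome 8, 144262102 to 144291370) stood at 38.4, 40.2 and 33.7 TPM in RPMI-1640 and 49.3, 52.5 and 54.5 TPM in HPLM, a log2 change of 0.47 ± 0.08 (adjusted p = 0.00664). PES1 (ENSG00000100029, chromosome 22, 30576625 to 30607083) stood at 77.5, 75.6 and 72.7 TPM in RPMI-1640 and 99.0, 100.4 and 103 TPM in HPLM, a log2 change of 0.42 ± 0.05 (adjusted p = 0.00167). WDR12 (ENSG00000138442, chromosome 2, 202874782 to 203014798) stood at 26.1, 26.3 and 25.4 TPM in RPMI-1640 and 36.0, 34.4 and 36.4 TPM in HPLM, a log2 change of 0.44 ± 0.05 (adjusted p = 0.00128). The 3 genes of the complex had close log2 changes, and their libraries did not overlap between media. RRS1 (ENSG00000179041, chromosome 8, 66429028 to 66430733), which helps to place the 5S particle, stood at 81.6, 82.1 and 76.5 TPM in RPMI-1640 and 134, 126 and 141 TPM in HPLM, a log2 change of 0.73 ± 0.06 (adjusted p = 6.72e-04). NOP2, a methyltransferase of the large ribosomal RNA, rose by 0.52 ± 0.05 (adjusted p = 9.79e-04) and the helicase DDX18 by 0.44 ± 0.06 (adjusted p = 0.00218). NOP16, GRWD1, a chaperone that binds histones and ribosomal protein, and RRP1B rose by 0.35, 0.32 and 0.23, and were not called after trimmed mean scaling. GNL3 (ENSG00000163938, chromosome 3, 52681156 to 52694492), which encodes the nucleolar GTPase nucleostemin, stood at 196, 199.6 and 197 TPM in RPMI-1640 and 203, 192 and 201 TPM in HPLM, a log2 change of 0.01 ± 0.05 (adjusted p = 0.929), so that the media overlapped.

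HT29 BOP1 was measured at 68.4, 29.9 and 29.8 TPM in RPMI-1640 libraries 1 to 3 and 40.9, 39.3 and 38.5 TPM in HPLM, a log2 change of 0.00 ± 0.33 with all libraries (adjusted p = 0.997) and of 0.39 ± 0.10 without library 1 (adjusted p = 0.0227). HT29 PES1 was measured at 92.9, 34.9 and 32.8 TPM in RPMI-1640 libraries 1 to 3 and 56.1, 55.2 and 46.2 TPM in HPLM, a log2 change of 0.14 ± 0.40 with all libraries (adjusted p = 0.871) and of 0.61 ± 0.12 without library 1 (adjusted p = 0.0123). HT29 WDR12 was measured at 41.7, 20.0 and 19.2 TPM in RPMI-1640 libraries 1 to 3 and 22.1, 21.1 and 20.3 TPM in HPLM, a log2 change of -0.24 ± 0.31 with all libraries (adjusted p = 0.677) and of 0.11 ± 0.10 without library 1 (adjusted p = 0.427). BOP1 and PES1 thus rose without library 1, and WDR12 did not pass the test. GRWD1 (ENSG00000105447, chromosome 19, 48445773 to 48457022) was measured at 56.2, 11.1 and 10.6 TPM in RPMI-1640 libraries 1 to 3 and 24.6, 21.9 and 18.1 TPM in HPLM, a log2 change of 0.16 ± 0.62 with all libraries (adjusted p = 0.903) and of 0.92 ± 0.15 without library 1 (adjusted p = 0.00564). Its call was lost on leaving out RPMI-1640 library 2 or 3 as well (adjusted p = 0.0608 and 0.0745). HT29 RRS1 was measured at 154, 113 and 135 TPM in RPMI-1640 libraries 1 to 3 and 137, 136 and 122 TPM in HPLM, a log2 change of -0.02 ± 0.17 with all libraries (adjusted p = 0.963) and of 0.09 ± 0.13 without library 1 (adjusted p = 0.597). HT29 GNL3 was measured at 219, 159 and 166 TPM in RPMI-1640 libraries 1 to 3 and 126, 124 and 112 TPM in HPLM, a log2 change of -0.57 ± 0.18 with all libraries (adjusted p = 0.113) and of -0.43 ± 0.11 without library 1 (adjusted p = 0.0241). GNL3 lay lower in all 3 HPLM libraries than in any RPMI-1640 library, and its call without library 1 was lost on leaving out RPMI-1640 library 2 or 3 or HPLM library 2 too (adjusted p = 0.0998, 0.127 and 0.0619). DDX18 rose without library 1 (0.45 ± 0.12, adjusted p = 0.0269, against -0.03 ± 0.41, adjusted p = 0.968, with all libraries). NOP2, NOP16 and RRP1B were not called, at -0.05, -0.19 and -0.17 without library 1 and at -0.27, -0.43 and -0.57 with all libraries.

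**Figure D5:**
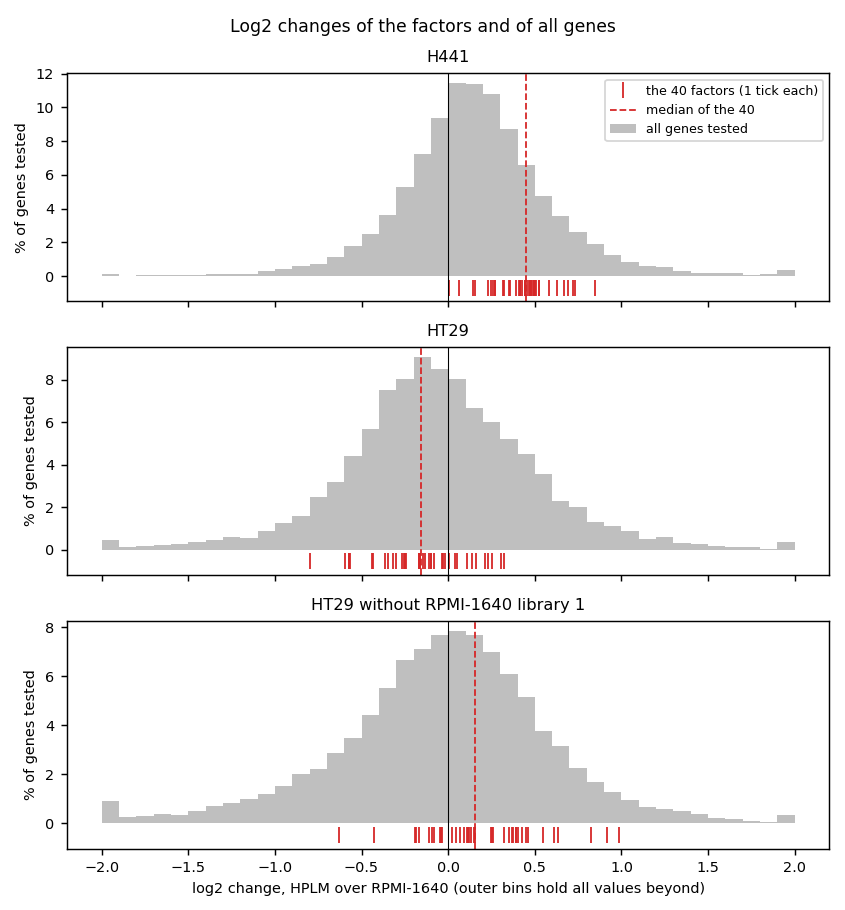
Log2 changes (horizontal axis, HPLM over RPMI-1640) of all genes tested, as grey bars in percent of genes, and of the 40 members, as red ticks with their median as a dashed line. In H441 the members' median is 0.45 against 0.14 for all genes, in HT29 -0.15 against -0.07, and without RPMI-1640 library 1 0.15 against 0.00.

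Members with and without the E-box in their window had near values. Of the 14 with it 12 rose in H441, with a median log2 change of 0.47, and of the 18 without it 17 rose, with a median of 0.43. GAR1 and GNL3 were the 2 with an E-box that did not pass the test. In HT29 without library 1, 5 of the 14 and 6 of the 18 rose, and LYAR and GNL3, which fell, both hold the motif. The median ratio of HT29 RPMI-1640 library 1 to libraries 2 and 3 was 2.22 and 2.19.

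The medium effect was then compared between the lines by an interaction term, the log2 change in HT29 minus that in H441. With all 12 libraries 5 members had a lower change in HT29 (adjusted p under 0.05, limma with Benjamini-Hochberg adjustment over 18703 genes) and 0 a higher one, against 12% and 3.12% of all genes tested. LYAR differed most, by -1.30 ± 0.20 (adjusted p = 0.00228), rising in H441 and lying lower in HPLM in HT29. WDR75 differed by -0.59 ± 0.13 (adjusted p = 0.0128), RRS1 by -0.75 ± 0.17 (adjusted p = 0.0157) and NOP2 by -0.79 ± 0.22 (adjusted p = 0.0387): all 3 rose in H441 and did not pass the test in HT29. GNL3, which did not pass it in H441, differed by -0.58 ± 0.17 (adjusted p = 0.0493). The interaction takes 1 variance per gene for both lines, although HT29 in RPMI-1640 spread more. The median difference over the members was -0.56 against -0.21 over all genes. All 40 differences lay below 0, but the share of all genes that did so was not computed. After trimmed mean scaling, with a median of -0.01 over all genes, 37 lay below 0. Without HT29 RPMI-1640 library 1, 30 lay below 0, and 24 after that scaling.

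Without that library 15 members had a lower change in HT29 and 2, UTP20 (0.49 ± 0.12, adjusted p = 0.0105, against -0.28 ± 0.70, adjusted p = 0.831, with all libraries) and GRWD1 (0.60 ± 0.16, adjusted p = 0.0185, against -0.16 ± 0.69, adjusted p = 0.904, with all libraries), a higher one. This compares with 26.5% and 10.2% of 19349 genes. The median difference was -0.26 against -0.14. LYAR (-1.14 ± 0.11, adjusted p = 7.74e-05), NOP2 (-0.57 ± 0.08, adjusted p = 7.13e-04), WDR75 (-0.54 ± 0.09, adjusted p = 0.00205) and NOP16 (-0.54 ± 0.10, adjusted p = 0.00271, against -0.78 ± 0.25, adjusted p = 0.0581, with all libraries) had the smallest adjusted p of the lower ones. POLR1B lay at -0.50 ± 0.11 (adjusted p = 0.00584) against -1.01 ± 0.47 (adjusted p = 0.184) with all libraries. Leaving out any 1 H441 or HT29 HPLM library left 3 of the 5, LYAR, WDR75 and RRS1, while 7 members were called without HT29 RPMI-1640 library 3 and 9 without library 2. Trimmed mean scaling left 2 of the 5, LYAR and RRS1, called with all libraries, against 8.01% of all genes lower and 6.07% higher. Without library 1 that scaling gave 12 lower and 6 higher members (NHP2, POLR1A, NCL, UTP20, PES1 and GRWD1), with a median of -0.10, against 23.3% and 19.6% of all genes. HEATR1 and BOP1 were called as different between the lines in none of these 4 fits.

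The levels themselves also stood apart between the lines. The tables of the 2 lines were deposited separately, so these levels are a description. In HPLM 32 members lay lower in all HT29 libraries than in any H441 library and 3 (NOP56, DDX52 and RRP12) higher, as 50% and 28.9% of all genes did. In RPMI-1640 1 lay lower and 9 higher with all libraries, against 31.2% and 26.2% of all genes. Without HT29 library 1, 23 lay lower and 9 higher, against 45.3% and 35.5%. NOP56 was the member highest in HT29 relative to H441 among those above, at 137 ± 6.93 TPM (SD, n = 3) in HPLM against 61.2 ± 1.62 TPM. RRP1B ran the other way, at 19.8 ± 1.81 TPM against 74.6 ± 2.21 TPM, and so did POLR1B, at 22.4 ± 1.69 TPM against 59.4 ± 0.628 TPM. In every group NPM1 had the highest mean level of the 40 and NCL the second highest. The lowest were RRP12 in H441 in RPMI-1640 (13.4 ± 0.692 TPM), GRWD1 in H441 in HPLM (20.2 ± 1.96 TPM) and UTP20 in HT29 in both media, whose levels are given above. The library kit keeps no strand and NPM1 has 45 pseudogenes named after it, so reads of NPM1 could be split with its copies. Of the 40, 8 members have such pseudogenes and 14 overlap an antisense gene with a mean of at least 1 TPM, among them WDR12, PES1, BOP1 and HEATR1, whose reads cannot be told apart from those of that gene where they overlap.

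The other genes of ribosome assembly, in 4 lists, also rose more often than they fell in H441. Of 119 tested, 67 rose and 2 fell, with a median log2 change of 0.28, where 33.7% of all genes rose and 11.3% fell. After trimmed mean scaling 50 rose and 14 fell, with a median of 0.13, where 22.5% of all genes rose and as many fell. In HT29 0 rose and 1 (BUD23) fell with all libraries. Without library 1 26 rose and 7 fell, with a median of 0.15, against 17.8% and 21.4% of all genes. Leaving out a further library gave 0 to 36 raised and 1 to 7 lowered. Of 49 other 60S assembly factors 31 rose and 0 fell in H441 (23 and 2 after trimmed mean scaling), and 11 rose and 2 fell in HT29 without library 1 (0 to 17 raised with a further library left out). NIFK, which binds the proliferation antigen Ki-67, stood in H441 at 155, 156 and 162 TPM in RPMI-1640 and 311, 294 and 317 TPM in HPLM, a log2 change of 0.96 ± 0.05 (adjusted p = 2.15e-04). RPF2, the partner of RRS1 in placing the 5S particle, rose in H441 (0.90 ± 0.05, adjusted p = 2.25e-04) and fell in HT29 without library 1 (-0.70 ± 0.13, adjusted p = 0.00982, against -0.62 ± 0.17, adjusted p = 0.0851, with all libraries), with 66.1, 70.1 and 89.2 TPM in RPMI-1640 and 50.4, 48.1 and 46.2 TPM in HPLM. URB2 and NLE1, both of 60S assembly, rose without library 1 by 0.76 ± 0.13 (adjusted p = 0.00649) against 0.03 ± 0.59 (adjusted p = 0.982) with all libraries and 0.74 ± 0.13 (adjusted p = 0.00741) against 0.36 ± 0.34 (adjusted p = 0.574) with all libraries.

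Of 42 other genes of the small subunit processome 24 rose and 0 fell in H441 (16 and 5 after trimmed mean scaling), and 8 rose and 3 fell in HT29 without library 1 (0 to 10 raised with a further library left out). Of all genes tested 33.7% rose and 11.3% fell in H441, and 17.8% and 21.4% in HT29 without library 1. In H441 after trimmed mean scaling 22.5% of all genes rose and 22.5% fell. The share of these processome genes raised in HT29 was near that of all genes. DIEXF rose by 0.77 ± 0.04 (adjusted p = 2.25e-04) and UTP4 by 0.69 ± 0.04 (adjusted p = 3.43e-04) in H441. In HT29 BUD23, a methyltransferase of the small ribosomal RNA, was the gene of these lists that fell with all libraries (-0.70 ± 0.15, adjusted p = 0.0454, and -0.76 ± 0.11, adjusted p = 0.00394, without library 1), while UTP14A rose without library 1 (0.75 ± 0.13, adjusted p = 0.00757, against 0.35 ± 0.35, adjusted p = 0.587, with all libraries). The BUD23 call with all libraries was lost in 5 of the 6 fits that left out 1 library (adjusted p up to 0.236). Of 17 other genes of RNA polymerase I and its initiation factors 8 rose and 2 fell in H441 (7 and 4 after trimmed mean scaling) and 6 rose and 2 fell in HT29 without library 1 (0 to 6 raised with a further library left out). RRN3, which links the polymerase to its promoter, stood in H441 at 41.7, 43.2 and 41.3 TPM in RPMI-1640 and 78.0, 76.2 and 77.4 TPM in HPLM, a log2 change of 0.86 ± 0.04 (adjusted p = 1.95e-04). UBTF, the upstream binding factor of ribosomal DNA, rose by 0.31 ± 0.06 (adjusted p = 0.00836) in H441 and in HT29 without library 1 by 0.62 ± 0.13 (adjusted p = 0.0125) against 0.18 ± 0.38 (adjusted p = 0.815) with all libraries. RRN3 lay in HT29 without library 1 at 0.09 ± 0.11 (adjusted p = 0.524) against -0.08 ± 0.19 (adjusted p = 0.848) with all libraries. POLR1E rose in H441 by 0.65 ± 0.05 (adjusted p = 5.52e-04) and in HT29 without library 1 by 0.65 ± 0.11 (adjusted p = 0.00674) against 0.23 ± 0.36 (adjusted p = 0.744) with all libraries. Of 11 other genes of the box C/D and H/ACA particles 4 rose and 0 fell in H441 (4 and 3 after trimmed mean scaling), ZNHIT6 (0.61 ± 0.06, adjusted p = 0.00122) and TGS1 (0.58 ± 0.05, adjusted p = 7.23e-04) among them. The share of this list that rose was near that of all genes. In HT29 without library 1 the 1 that rose was ZNHIT6 (0.39 ± 0.12, adjusted p = 0.0474, against 0.12 ± 0.26, adjusted p = 0.825, with all libraries). With a further library left out its log2 change ran from 0.32 to 0.47, and its call did not hold in every fit.

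MYC rose with the members in H441. It stood at 203, 214 and 209 TPM in RPMI-1640 and 680.0, 639.7 and 700.5 TPM in HPLM, a log2 change of 1.68 ± 0.05 (adjusted p = 8.61e-05), with every HPLM library above every RPMI-1640 library. In HT29 MYC was measured at 359, 83.7 and 65.2 TPM in RPMI-1640 libraries 1 to 3 and 124, 120.2 and 103 TPM in HPLM, a log2 change of -0.12 ± 0.62 with all libraries (adjusted p = 0.929) and of 0.64 ± 0.15 without library 1 (adjusted p = 0.0200). MYC was thus high in RPMI-1640 library 1, as the members were. Without that library its log2 change passed the test, and no longer did on leaving out RPMI-1640 library 2 or 3 as well (adjusted p = 0.0502 and 0.135). MAX, its partner, rose by 0.72 ± 0.05 (adjusted p = 4.17e-04) in H441 and in HT29 without library 1 by 0.54 ± 0.10 (adjusted p = 0.0104) against 0.51 ± 0.14 (adjusted p = 0.0855) with all libraries. MXD1, MXI1 and MNT pair with MAX in place of MYC. MXD1 rose in H441 (0.88 ± 0.05, adjusted p = 2.84e-04) and fell in HT29 without library 1 (-0.75 ± 0.12, adjusted p = 0.00522, against -0.40 ± 0.31, adjusted p = 0.490, with all libraries), where library 1 stood at 15.03 TPM and libraries 2 and 3 at 34.8 and 30.05 TPM. MXI1 lay at 0.27 ± 0.09 (adjusted p = 0.0543) in H441 and fell in HT29 without library 1 (-0.62 ± 0.10, adjusted p = 0.00548, against -0.26 ± 0.31, adjusted p = 0.657, with all libraries). MNT was not called, at 0.19 ± 0.07 (adjusted p = 0.0603) in H441 and in HT29 without library 1 at 0.13 ± 0.13 (adjusted p = 0.443) against 0.10 ± 0.15 (adjusted p = 0.733) with all libraries. MXD3, of the same family, fell in H441 (-0.68 ± 0.07, adjusted p = 0.00106) and in HT29 without library 1 (-1.03 ± 0.13, adjusted p = 0.00231, against -0.71 ± 0.29, adjusted p = 0.197, with all libraries). Of the 14 genes tested among MYC and its partners 9 rose and 2 fell in H441 (7 and 2 after trimmed mean scaling), where 33.7% and 11.3% of all genes did. After that scaling 22.5% of all genes rose and 22.5% fell. In HT29 0 of the 14 rose or fell with all libraries, and 2 rose and 5 fell without library 1, where 17.8% and 21.4% of all genes did. Leaving out a further library gave 0 to 3 raised and 1 to 5 lowered.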

How the data were processed

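Per the labels' protocols, RNA was purified with Qiagen RNeasy and its polyadenylated part sequenced from unstranded TruSeq v2 libraries. The submitters' processing notes name Trimmomatic 0.36, Subread 1.5.2, STAR 2.5.2b, GRCh38 and DESeq2, with no roles; the annotation is not given in the sources used here. The authors deposited TPM per library, and beside it the authors' log2 fold changes and p-values with a deposited signal, read counts divided by size factors. Whole reads were recovered from it (100% of values within 0.01 of a whole read). Each line was fitted with limma 3.58.1 (R 4.3.3) on log2(TPM + 1). The filter asked for 1 TPM or more in 3 libraries, or in as many as the smaller group had where a library was left out. Tests were two-sided, Benjamini-Hochberg adjusted over all genes tested, with a threshold of 0.05. Errors of log2 changes are standard errors, and this scale understates changes of low genes. Alternatives were edgeR 4.0.16 and DESeq2 1.42.0 on recovered reads, other scalings, filters and pseudocounts, a replicate block, and each library left out; for HT29 without library 1 they were added after seeing the data. The scripts were tested on simulated data. The members, roles, lists and tests were chosen with earlier results of these data known. Values in every library are given for 16 members fixed by name and the 3 of largest change in each direction in each line. Other pathway genes were named by smallest adjusted p, besides 7 regulators fixed by name; promoter sites and other single values were chosen after values were seen. Promoters are RefSeq's (GRCh38.p14).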

Additional observations from a re-analysis of the deposited data

Results flagged for a closer look

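The medium effect differed between the lines by a test of the difference itself (limma interaction, HT29 minus H441, all 12 libraries) in 5 of the 40 members, all lower in HT29, a share near the 12% of all genes tested. The difference was -1.30 on the log2 scale in LYAR, -0.59 in WDR75, -0.79 in NOP2, -0.75 in RRS1 and -0.58 in GNL3. Without HT29 RPMI-1640 library 1 these were -1.14, -0.54, -0.57, -0.64 and -0.43, all with an adjusted p under 0.05. With all libraries as the start, LYAR was called under every alternative tried and RRS1 under all but the replicate block. WDR75 lost its call after trimmed mean scaling, after median centring, without mitochondrially encoded genes, by edgeR and with the replicate block. NOP2 and GNL3 lost theirs after trimmed mean scaling, after median centring, without mitochondrially encoded genes and with the replicate block. They also lost them with a pseudocount of 0.1, with no filter, and without any 1 H441 or HT29 HPLM library. By edgeR 3 members were lower in HT29, LYAR and RRS1 among them, so NOP2 and GNL3 were not both called there.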

How the results depend on the processing

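In H441 the number of raised members ran from 28 to 36 over all settings tried. The median log2 change was 0.29 after trimmed mean scaling, 0.27 after median centring, 0.32 without mitochondrially encoded genes, 0.31 by edgeR and 0.30 by DESeq2. Over all genes the medians were 0.00, -0.04, 0.03, 0.01 and 0.00 in that order. Lowered members then numbered 1, 2, 1, 2 and 2. In HT29 the lowered members were 1 after trimmed mean scaling, 2 by edgeR and 2 by DESeq2, which called 1 raised. Members lower in HT29 by the interaction numbered 3 with a pseudocount of 0.1, 3 with no filter, 3 by edgeR, and 2 after trimmed mean scaling, after median centring and without mitochondrially encoded genes. Without library 1, the members higher in HT29 numbered 6 after trimmed mean scaling, 7 after median centring, 7 without mitochondrially encoded genes (with 8 lower) and 9 by edgeR, with median differences of -0.10, -0.0660, -0.0378 and -0.0729. The cause was not tested. After trimmed mean scaling without library 1, 19.6% of all genes were higher in HT29, with a median difference of -0.01. For the other settings of the interaction the share of all genes is not given, so these counts are not read as particular to the members. Over the fits that left out 1 library, counts of members ran from 0 to 14 raised in HT29, 0 to 2 lowered in HT29, 3 to 15 lower in HT29 by the interaction, 0 to 2 higher by the interaction, 1 to 16 raised in HT29 without library 1, 0 to 2 lowered there and 1 to 4 higher by the interaction without library 1. Libraries with the same number did not deviate together: the correlation of their deviations over genes was -0.03, 0.02 and -0.0034 in H441 and 0.05, -0.10 and 0.17 in HT29, so they were taken to share only a number. With the replicate block 31 members rose in H441, 0 in HT29, and 1 was lower in HT29 by the interaction; not every library correlated best with its own number.

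Log2 changes whose sign turned under another setting follow. After trimmed mean scaling, values in H441 were GAR1 -0.00535, NHP2 -0.0179, NOLC1 -0.0981, GNL3 -0.15, SHQ1 -0.0696 and BUD23 -0.13. After trimmed mean scaling, values in HT29 were NOP14 0.00855, DDX52 0.0607, RRS1 0.0758, DDX18 0.0583 and RRN3 0.0161. After median centring, values in H441 were GAR1 -0.0281, NHP2 -0.0402, NOLC1 -0.12, GNL3 -0.18, SHQ1 -0.0974, BUD23 -0.16 and CDKN2A -0.0156. After median centring, values in HT29 were DDX52 0.0385, RRS1 0.0519 and DDX18 0.0347. After median centring, values in HT29 without library 1 were NPM1 0.00116. Without mitochondrially encoded genes, values in H441 were NOLC1 -0.0738, GNL3 -0.13, SHQ1 -0.0465 and BUD23 -0.11. Without mitochondrially encoded genes, values in HT29 were NOP58 0.0265, POLR1C 0.0556, WDR3 0.0440, WDR75 0.0579, NOP14 0.0744, DDX52 0.13, PNO1 0.00863 and RRS1 0.14. Without mitochondrially encoded genes, further values in HT29 were DDX18 0.12, RRN3 0.0816, NIFK 0.0488 and MYC 0.0432. Without mitochondrially encoded genes, values in HT29 without library 1 were DKC1 0.0112, NPM1 0.0587, NOLC1 0.000934, WDR75 0.0497 and NOP2 0.0420. By edgeR, values in H441 were NHP2 -0.00901, NOLC1 -0.0881, GNL3 -0.15, SHQ1 -0.0608 and BUD23 -0.12. By edgeR, values in HT29 were UTP20 -0.0638, DDX52 0.00517, RRS1 0.0701, GRWD1 -0.0946, RRN3 0.0106 and URB2 -0.21. By DESeq2, values in H441 were GAR1 -0.00548, NHP2 -0.0190, NOLC1 -0.0982, GNL3 -0.16, SHQ1 -0.0710 and BUD23 -0.13. By DESeq2, values in HT29 were UTP20 -0.0894, HEATR1 -0.00259, RRS1 0.0619, GRWD1 -0.12, RRN3 0.00227 and URB2 -0.24. In H441, leaving out single libraries, the range was GNL3 -0.0101 to 0.0298 and BUD23 -0.00964 to 0.0520. In HT29, leaving out single libraries, the range was NOP56 -0.47 to 0.16, NOP58 -0.27 to 0.0193, FBL -0.59 to 0.0423, POLR1B -0.46 to 0.35, POLR1C -0.23 to 0.0663 and NCL -0.45 to 0.37. In HT29, ranges there also included UTP15 -0.32 to 0.13, WDR43 -0.55 to 0.11, WDR3 -0.41 to 0.46, NOP14 -0.34 to 0.40, DDX10 -0.37 to 0.15 and DDX52 -0.24 to 0.32. In HT29, the span was BYSL -0.43 to 0.12, TSR1 -0.66 to 0.25, PNO1 -0.38 to 0.26, WDR12 -0.43 to 0.11, RRS1 -0.13 to 0.0905 and DDX18 -0.31 to 0.45. In HT29, values ran over NHP2 -0.16 to 0.43, UTP20 -0.19 to 0.98, HEATR1 -0.27 to 0.54, BOP1 -0.19 to 0.39, PES1 -0.12 to 0.61 and GRWD1 -0.24 to 0.92. In HT29, further ranges were POLR1A -0.00742 to 0.82, MYBBP1A -0.0800 to 0.39, ZNHIT6 -0.0273 to 0.39, SHQ1 -0.45 to 0.36, TGS1 -0.40 to 0.0994 and POLR2L -0.15 to 0.64. In HT29, others ran over RRN3 -0.17 to 0.0936, UBTF -0.0750 to 0.62, DIEXF -0.0689 to 0.66, UTP4 -0.51 to 0.30, URB2 -0.37 to 0.76 and NIFK -0.21 to 0.0298. In HT29, the last ranges were MYC -0.58 to 0.64 and ZMAT3 -0.0777 to 0.11. In HT29 without library 1, leaving out single libraries, the range was NOP58 -0.0990 to 0.14, FBL -0.0398 to 0.12, POLR1C -0.0319 to 0.16, DDX21 -0.32 to 0.11, RRS1 -0.0380 to 0.22 and NPM1 -0.13 to 0.0627. In HT29 without library 1, ranges there also included WDR75 -0.10 to 0.0158, NIFK -0.0287 to 0.0882 and ZMAT3 -0.14 to 0.24. No member called in H441, or in HT29 without library 1, turned its sign. The shallowest library had 14.2 M reads, and the lowest level of any member was 5.16 TPM, in UTP20.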

Other observations

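Gene lists tied to ribosome assembly but outside it are given here beside all genes tested, of which 33.7% rose and 11.3% fell in H441 and 17.8% rose and 21.4% fell in HT29 without RPMI-1640 library 1. After trimmed mean scaling 22.5% of all genes rose and 22.5% fell in H441. With all HT29 libraries 0 genes of these lists rose or fell. Of 16 host genes of small nucleolar RNAs, long transcripts whose introns carry those RNAs, 12 rose and 0 fell in H441 (10 and 1 after trimmed mean scaling), and 3 rose and 3 fell in HT29 without library 1, shares near those of all genes. Leaving out a further library gave 0 to 3 raised and 0 to 1 lowered. GAS5, a host of box C/D RNAs, stood in H441 at 244, 249.9 and 222 TPM in RPMI-1640 and 379, 381 and 377 TPM in HPLM, a log2 change of 0.67 ± 0.06 (adjusted p = 7.84e-04). In HT29 GAS5 was measured at 122, 798 and 932 TPM in RPMI-1640 libraries 1 to 3 and 1141, 1058 and 1026 TPM in HPLM, a log2 change of 1.25 ± 0.75 with all libraries (adjusted p = 0.359) and of 0.32 ± 0.12 without library 1 (adjusted p = 0.0803). Library 1 was thus low in GAS5, the reverse of its place in the assembly factors, and LRRC75A-AS1, another host, was low there too, at 176, 365 and 332 TPM in RPMI-1640. SNHG12, also a host, rose in HT29 without library 1 (0.56 ± 0.11, adjusted p = 0.0118, against 1.01 ± 0.38, adjusted p = 0.166, with all libraries) and did not pass the test in H441 (-0.09 ± 0.06, adjusted p = 0.298).

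Of 17 genes of the RNA exosome and its cofactors, which trim and degrade precursor RNA, 8 rose and 1 fell in H441 (5 and 3 after trimmed mean scaling), and 2 rose and 4 fell in HT29 without library 1. EXOSC5 rose in H441 (0.72 ± 0.06, adjusted p = 5.36e-04) and in HT29 without library 1 (0.99 ± 0.11, adjusted p = 0.00197, against 0.78 ± 0.22, adjusted p = 0.0866, with all libraries). EXOSC6 rose in H441 (0.81 ± 0.06, adjusted p = 4.77e-04), and EXOSC8 fell in HT29 without library 1 (-0.75 ± 0.11, adjusted p = 0.00426, against -0.62 ± 0.17, adjusted p = 0.0891, with all libraries). Of 11 genes of the 5S particle and the nucleolar stress response 6 rose and 3 fell in H441 (5 and 3 after trimmed mean scaling), and 1 rose and 3 fell in HT29 without library 1. CDKN1A, which encodes the p21 inhibitor of cell cycle kinases, rose in H441 (0.61 ± 0.07, adjusted p = 0.00151) and fell in HT29 without library 1 (-1.62 ± 0.15, adjusted p = 9.76e-04, against -1.23 ± 0.35, adjusted p = 0.0904, with all libraries). Library 1 was close to the HPLM libraries in it, with 19.0, 45.8 and 42.1 TPM in RPMI-1640 and 16.0, 13.5 and 11.8 TPM in HPLM. MDM4, an inhibitor of p53, rose in H441 (0.93 ± 0.06, adjusted p = 3.21e-04) and ZMAT3, a target of p53, fell (-0.54 ± 0.05, adjusted p = 8.44e-04), while CDKN2A fell in HT29 without library 1 (-0.77 ± 0.12, adjusted p = 0.00534, against -0.48 ± 0.28, adjusted p = 0.345, with all libraries).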
